A study of Mus musculus with 7 samples.

Results

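Milk triglyceride is assembled from fatty acids that the mammary gland makes itself and from fatty acids that it takes out of the blood. The 10 genes described here belong to the second route: *Lpl*, *Gpihbp1*, *Vldlr*, *Cd36*, *Fabp3*, *Fabp5*, *Slc27a1*, *Slc27a3*, *Slc27a4* and *Acsl1*. They were listed by name for their known roles, with earlier results of these data known, out of the 37310 genes counted in RNA of mouse mammary glands, and all 10 passed the filter on low counts. Glands of C57BL/6 mothers were taken on day 1 of lactation (L1), giving 3 libraries labelled WT and 4 libraries labelled *Tardbp* KO. Mice of both groups carried the WAP-Cre transgene, which combined with intact *Tardbp* alleles (*Tardbp* wt/wt) in the WT group and with floxed alleles (*Tardbp* fl/fl) in the KO group. The *Wap* promoter, that of a gene for a whey protein, turns Cre on in luminal epithelial cells from the middle of pregnancy, so that exons 2 and 3 of *Tardbp*, the gene of the RNA-binding protein TDP-43, are lost there, while endothelial cells, adipocytes and the other cells of the gland keep the gene. The RNA came from whole glands, and the ages of the mice are not given in the sources used here. The comparison of the 2 genotypes answers whether RNA of the uptake route differed between glands with and without epithelial TDP-43.

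Triglyceride travels in blood inside chylomicrons and VLDL. Lipoprotein lipase, encoded by *Lpl*, frees fatty acids from these particles on the surface of capillaries, where the endothelial protein GPIHBP1 carries and holds it, and the VLDL receptor (*Vldlr*) binds the particles themselves. CD36 and the fatty acid transport proteins FATP1, FATP3 and FATP4 (*Slc27a1*, *Slc27a3*, *Slc27a4*) aid the entry of long-chain fatty acids, the small cytosolic proteins FABP3 and FABP5 carry them inside the cell, and ACSL1 joins them to coenzyme A, which commits them to further use. In the lactating gland this route is known to supply long-chain fatty acids for milk triglyceride.

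Each library held between 36007737 and 42811337 counted reads, and each member took between 396 (*Slc27a3* in WT replicate 2) and 106896 (*Fabp3* in WT replicate 3) of them, so that counting error was small beside the spread between libraries. Scaling factors of the trimmed mean of M values (TMM), which correct for differences in RNA composition, lay between 0.781 and 0.909 in the WT libraries and between 1.00 and 1.23 in the KO libraries. *Tardbp* itself was at 223, 178 and 159 CPM (the count relative to the TMM-scaled library size) in WT libraries and at 214, 176, 154 and 208 CPM in KO libraries, a log2 fold change (KO minus WT) of 0.01 ± 0.18 (SE). A count over the whole gene, in RNA that includes cells without Cre, does not test the loss of exons 2 and 3. Summed markers of secretory luminal epithelium spanned 210118 to 306023 CPM in WT and 70411 to 145879 CPM in KO libraries, a sum made up mostly of the milk protein genes *Csn2*, *Wap* and *Csn1s1*. The 10 markers were split, with 6 lower in the fit (5 at an unadjusted p under 0.05) and 4 higher (2 at an unadjusted p under 0.05, *Krt8* at 0.55 with every KO library above every WT library and *Cldn3* at 1.12). Endothelial markers summed to 481 to 671 CPM in WT and 414 to 721 CPM in KO libraries, adipocyte markers to 2951 to 4245 and 3275 to 6323 CPM, and macrophage markers to 533 to 1655 and 1288 to 2847 CPM. The macrophage sum leaned on *Cd14*, at 135, 1299 and 382 CPM in WT and at 680, 1648, 2203 and 2262 CPM in KO libraries. All 10 macrophage markers were higher in the fit, 0 of them at an unadjusted p under 0.05. Lymphocyte markers spanned 41.3 to 57.4 CPM in WT libraries and were at 425, 68.2, 584 and 130 CPM in KO replicates 1 to 4, with all 10 higher in the fit. All 10 had an unadjusted p under 0.05, with a median log2 fold change of 2.56 and a lowest adjusted p of 0.0739 (edgeR quasi-likelihood test). Of all tested genes, 10.7% were lower and 10.7% higher at such an unadjusted p. No marker of these lists was at 0 in every library. Nothing in the labels says more than that the replicates are separate samples, so the p-values measure the spread between these samples.

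RNA of 9 of the 10 members was lower on average in KO than in WT glands, and that of *Slc27a1* was higher, although scaling by library size alone, which moved the median log2 fold change of all genes to 0.42, put *Gpihbp1*, *Fabp5* and *Slc27a3* above 0. Relative to that median the same 9 were lower. No member passed the study's limits, which are an adjusted p under 0.01 together with a log2 fold change beyond 1 in either direction (edgeR quasi-likelihood test, Benjamini-Hochberg adjustment over 17175 genes). At these limits 0% of all tested genes were called in either direction, while 3674 genes had an unadjusted p under 0.05. The study itself called genes at these limits with edgeR, and its methods do not name the test used. Both edgeR's exact test, which called 1.44% of all genes as lower in KO, and DESeq2's Wald test, which called 1.64% as lower, also left the members at 0. At an unadjusted p under 0.05, 4 of 10 members (*Lpl*, *Vldlr*, *Fabp3* and *Acsl1*) were lower and 0 were higher, against 10.7% of all genes lower and 10.7% higher. This count was 0 without WT replicate 1, 6 without WT replicate 2, 2 without WT replicate 3 and 2 without KO replicate 3, while the share of all genes lower at such a p was 5.89%, 11.8%, 7.68% and 7.64%. The median log2 fold change of the members was -0.47, against 0.05 for all tested genes. No member had every KO library below or above every WT library, a pattern that 9.62% of all genes showed in the lower and 9.07% in the higher direction. In whole tissue, fewer cells of a type and less RNA per cell cannot be told apart, so each level below is that of the gland and not of its epithelium.

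**Figure D1:**
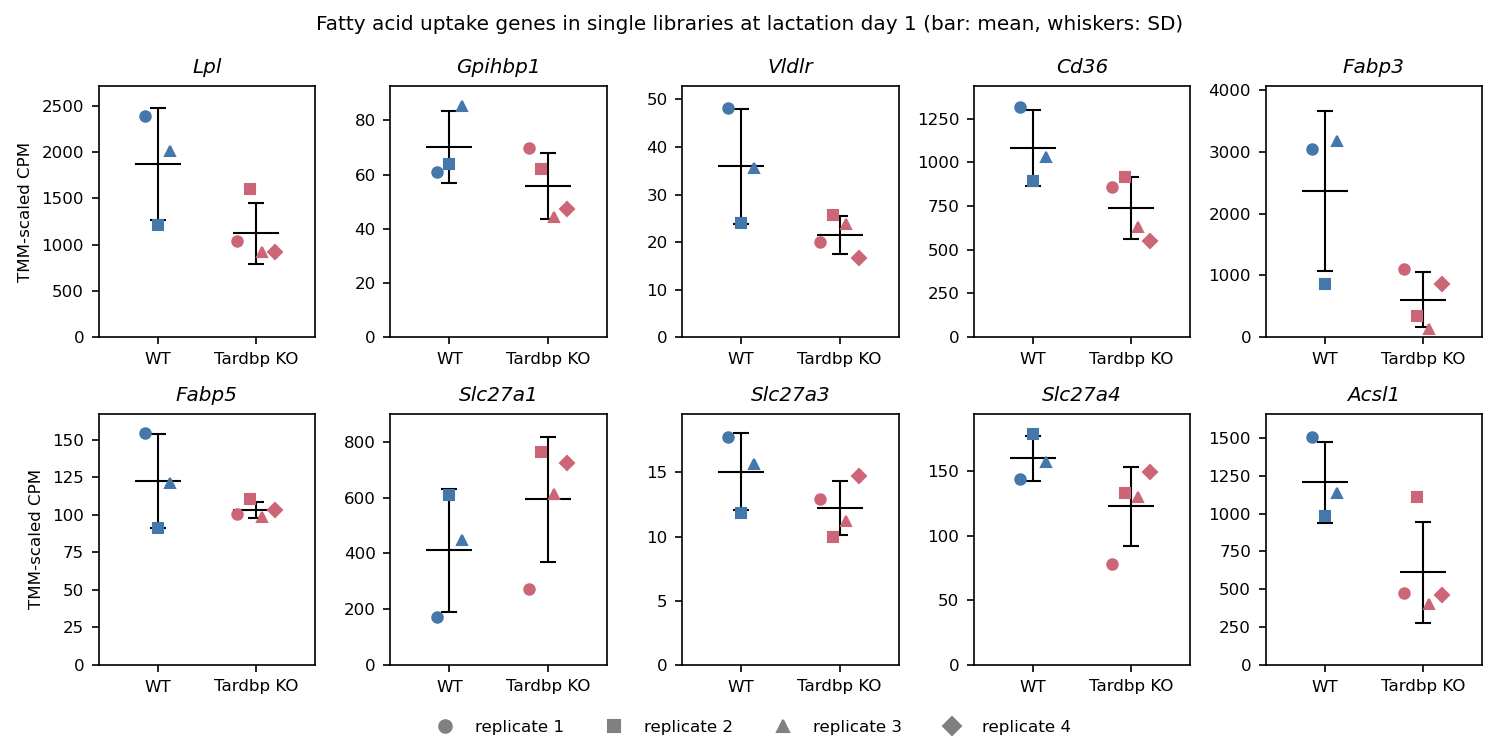
TMM-scaled CPM of the 10 genes in each library, one panel per gene with its own axis from 0, with WT in blue and Tardbp KO in red, a bar at the mean and whiskers of 1 SD (3 WT and 4 KO libraries). In every panel the libraries of the 2 genotypes overlap, and in 7 panels WT replicate 2 (blue square) is the lowest WT library.

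Among the WT libraries, WT replicate 2 had the lowest median level of these genes, with WT replicate 3 between it and WT replicate 1. WT replicate 2 was the lowest WT library for 7 members (*Lpl*, *Vldlr*, *Cd36*, *Fabp3*, *Fabp5*, *Slc27a3* and *Acsl1*), and WT replicate 1 was the lowest for the other 3. Relative to the WT mean of each gene, the median of the 10 members on the log2 scale was 0.32, -0.29 and 0.05 in WT replicates 1, 2 and 3, and -0.59, -0.19, -0.57 and -0.75 in KO replicates 1 to 4. The second WT library therefore lay below the second KO library, and the other 3 KO libraries lay below all WT libraries. Without WT replicate 2, an unadjusted p under 0.05 was found for 6 members, all lower in KO (background 11.8% of 16868 genes), and every KO library lay below both remaining WT libraries for 7 members (background 17.6%). These are the same 7 for which that library was the lowest. A gene shows this pattern more easily once its lowest WT library is left out. The count is therefore not independent of that observation and was not taken as support. The median log2 fold change was then -0.56. *Vldlr* had the lowest adjusted p in that fit, 0.0449 with a log2 fold change of -0.96 ± 0.21 (SE), and still missed the limits (edgeR quasi-likelihood test).

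**Figure D2:**
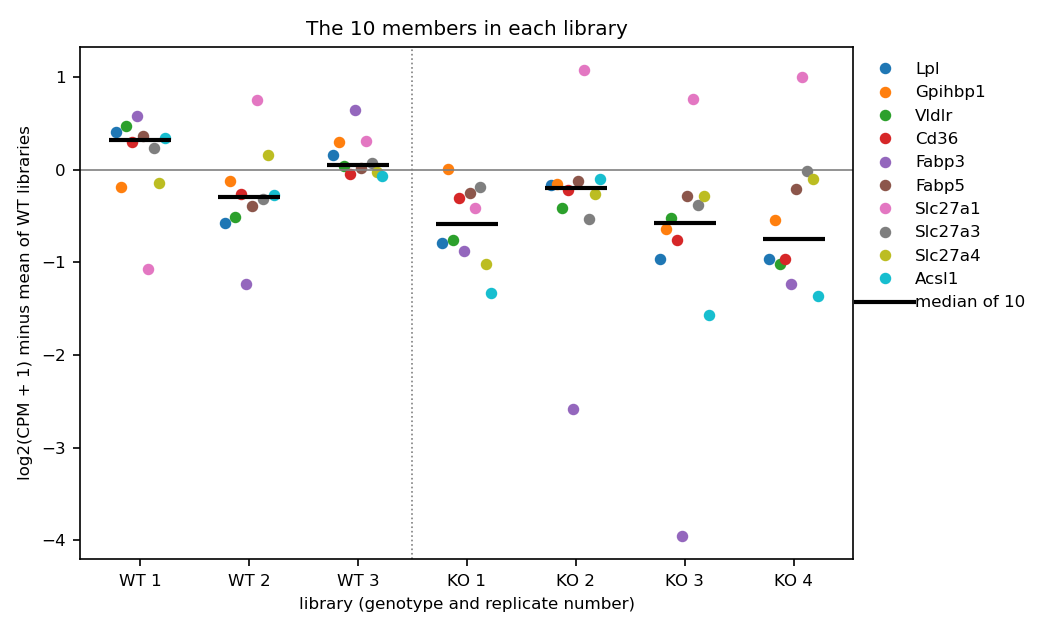
Log2(CPM + 1) of each of the 10 genes minus its mean over the WT libraries, in each library, with a black bar at the median of the 10. The medians are 0.32, -0.29 and 0.05 in the WT and -0.59, -0.19, -0.57 and -0.75 in the KO libraries, and Slc27a1 (pink) lies above the other 9 genes in KO replicates 2, 3 and 4.

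The only flow-cell lane with both genotypes was lane 4, with WT replicate 2 and KO replicates 3 and 4. Within this lane the median log2 ratio of the members, KO to WT, was -0.37, with 7 members lower and 3 (*Fabp5*, *Slc27a1* and *Slc27a3*) higher. The other 4 libraries were sequenced on a lane of their own, so no further comparison within a lane could be made.

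TDP-43 is known to bind RNA rich in UG, so the longest annotated transcript of each member was searched on its sense strand for runs of at least 3 UG in a row (TGTGTG or longer, without overlap). Over 15112 tested genes with such a transcript, the median gene held 1 run with 3 UG, and 28.5% held none. *Fabp3* (823 bases) and *Gpihbp1* (796 bases) held no run, *Slc27a1* held 1 run of 3 UG and *Fabp5* 1 run of 4 UG. *Lpl* and *Cd36* each held 2 runs with 6 UG in all, and *Slc27a3*, *Slc27a4* and *Acsl1* 2 runs with 7 UG. *Vldlr*, the longest of these transcripts at 7971 bases, held the most, 6 runs with 19 UG, a number that 7.84% of the tested genes reach. Per kilobase it held 2.38 UG in runs, below *Fabp5* at 4.05 and *Slc27a3* at 3.10. The median over the tested genes was 1.43. No member had a run longer than 4 UG, a length that 23.4% of the tested genes reach. The longest runs of *Vldlr* and *Acsl1* and both runs of *Lpl*, the members with an unadjusted p under 0.05 that hold any, and the run of *Fabp5* for contrast, are given here 5′ to 3′ on the sense strand, with T for U, the run in capitals, and coordinates of the run in NCBIM37.
*Vldlr*, 3′ UTR, chr19:27327670-27327677, plus strand: aaagctagTGTGTGTGtctgtctt
*Acsl1*, coding sequence, chr8:47616325-47616332, plus strand: gggtgaggTGTGTGTGaaaggggc
*Lpl*, 3′ UTR, chr8:71430601-71430606, plus strand: gtaaataaTGTGTGggtatgta
*Lpl*, 3′ UTR, chr8:71430779-71430784, plus strand: aactcaccTGTGTGaagaaatg
*Fabp5*, 3′ UTR, chr3:10016345-10016352, plus strand: ttatgataTGTGTGTGggttcttc
These matches describe letters in the annotated transcripts. The member with the largest difference between genotypes, *Fabp3*, held none, and *Vldlr*, with the most in all, was at 59.9% of the WT mean in KO glands. Whether the runs have a part in these levels was not tested.

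*Lpl* (ENSMUSG00000015568, NCBIM37 chr8:71404390-71431347, plus strand) encodes the lipase that starts the route. WT replicates 1 to 3 were at 2395, 1210 and 2013 CPM, and KO replicates 1 to 4 at 1044, 1607, 921 and 921 CPM. KO replicates 1, 3 and 4 lay below all WT libraries, whereas KO replicate 2 lay above WT replicate 2, so the groups overlapped. WT glands had a mean of 1873 ± 605 CPM (SD, n = 3), and KO glands a mean of 1123 ± 328 CPM (SD, n = 4), or 60.0% of WT. The log2 fold change was -0.74 ± 0.30 (SE), with an unadjusted p of 0.0390 and an adjusted p of 0.208 (edgeR quasi-likelihood test), and a 2-sided exact permutation test over libraries gave p = 0.114. The smallest p that this test can give with 3 against 4 libraries, over 35 splits, is 0.0286, and none of the 10 members was under 0.05 in it, on the log2 scale or on CPM.

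*Gpihbp1* (ENSMUSG00000022579, NCBIM37 chr15:75427088-75428642, plus strand) encodes the anchor of the lipase on capillary endothelium. WT libraries held 61.1, 63.8 and 85.4 CPM, and KO libraries 69.7, 62.2, 44.3 and 47.3 CPM. KO replicates 3 and 4 lay below all WT libraries and KO replicate 1 lay above 2 of them. The means were 70.1 ± 13.3 CPM (SD, n = 3) and 55.9 ± 12.1 CPM (SD, n = 4), with a log2 fold change of -0.33 ± 0.20 (SE), smaller than the range of either group and with an adjusted p of 0.387. The endothelial markers had a median log2 fold change of -0.11, with *Egfl7* lower and *Cldn5* higher at an unadjusted p under 0.05, and their part in the level of *Gpihbp1* was not tested beyond a fit with their mean level as a covariate, in which the value of *Gpihbp1* was -0.30. Without WT replicate 3 it was -0.16 (adjusted p = 0.771).

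*Vldlr* (ENSMUSG00000024924, NCBIM37 chr19:27290974-27328721, plus strand), the receptor for triglyceride-rich particles, was at 48.2, 24.0 and 35.5 CPM in WT libraries and at 19.96, 25.6, 23.9 and 16.6 CPM in KO libraries. Only KO replicate 2 overlapped the WT range, through WT replicate 2, with KO replicate 3 just under it. Mean levels of 35.9 ± 12.2 CPM (SD, n = 3) and 21.5 ± 4.05 CPM (SD, n = 4) gave a log2 fold change of -0.74 ± 0.25 (SE), with an unadjusted p of 0.0151 and an adjusted p of 0.143. This was the lowest adjusted p among the members, and the exact permutation p was 0.0571. The log2 fold change was -0.47 (adjusted p = 0.467) without WT replicate 1, -0.96 without WT replicate 2 and -0.24 within lane 4.

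Among the genes of fatty acid entry, *Cd36* was the most abundant in counts and *Slc27a3* the least. *Cd36* (ENSMUSG00000002944, NCBIM37 chr5:17287508-17394777, minus strand), a scavenger receptor that binds long-chain fatty acids, was at 1317, 891 and 1033 CPM in WT libraries and at 862, 915, 628 and 548 CPM in KO libraries. KO replicate 2 was above WT replicate 2, and the other 3 KO libraries were below every WT library. The mean in KO glands, 738 ± 178 CPM (SD, n = 4), was 68.3% of the 1080 ± 217 CPM (SD, n = 3) in WT glands. Its log2 fold change was -0.55 ± 0.25 (SE), with an unadjusted p of 0.0526 and an adjusted p of 0.239 (edgeR quasi-likelihood test). The 3′ UTR of *Cd36* holds a run of 3 UG at chr5:17289041-17289046 on the minus strand.
*Cd36*, 3′ UTR: aatggtggTGTGTGctctctct

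*Slc27a1* (ENSMUSG00000031808, NCBIM37 chr8:74092826-74110607, plus strand), which encodes FATP1, differed from the other members in its direction and in its order over libraries. WT libraries were at 172, 610 and 450 CPM, and KO libraries at 271, 764, 615 and 725 CPM. Replicate 1 was the lowest library of each genotype, and KO replicates 2, 3 and 4 were above every WT library, with KO replicate 3 only just above WT replicate 2. WT glands had a mean level of 411 ± 221 CPM (SD, n = 3), and for KO glands it was 594 ± 224 CPM (SD, n = 4). The log2 fold change of 0.53 ± 0.46 (SE) was within the spread between libraries, with an adjusted p of 0.551. Leaving out WT replicate 1 gave 0.17 (adjusted p = 0.909), and leaving out WT replicate 2 gave 0.93 ± 0.50 (SE) with an adjusted p of 0.284.

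*Slc27a4* (ENSMUSG00000059316, NCBIM37 chr2:29658154-29673042, plus strand), which encodes FATP4, was at 144, 179 and 157 CPM in WT and at 78.2, 133, 131 and 149 CPM in KO libraries. It is a member in which WT replicate 2 was the highest WT library. KO replicates 1, 2 and 3 lay below all WT libraries and KO replicate 4 lay between them. Its log2 fold change was -0.38 ± 0.22 (SE) with an adjusted p of 0.354, from means of 160 ± 17.3 CPM (SD, n = 3) and 123 ± 30.9 CPM (SD, n = 4), and without KO replicate 1, the lowest library, it was -0.21. *Slc27a3* (ENSMUSG00000027932, NCBIM37 chr3:90189161-90193860, minus strand), the gene of FATP3, was at 17.7, 11.8 and 15.6 CPM in WT and at 12.95, 9.96, 11.2 and 14.7 CPM in KO libraries. Here 2 KO libraries lay within the WT range and 2 below it, and the log2 fold change of -0.30 ± 0.21 (SE) had an adjusted p of 0.442, and was -0.17 without WT replicate 1.

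*Fabp3* (ENSMUSG00000028773, NCBIM37 chr4:129985839-129992707, plus strand), the heart-type fatty acid binding protein, differed most between the genotypes and also varied most within them. WT libraries were at 3045, 866 and 3177 CPM. KO libraries were at 1103, 338, 130 and 862 CPM. WT replicate 2 lay close to KO replicate 4 and below KO replicate 1, and the highest library exceeded the lowest 3.67-fold in WT and 8.47-fold in KO glands. The KO mean of 609 ± 451 CPM (SD, n = 4) was 25.8% of the WT mean of 2363 ± 1298 CPM (SD, n = 3). On the log2 scale the difference was -1.96 ± 0.69 (SE), with an unadjusted p of 0.0203, an adjusted p of 0.158 (edgeR quasi-likelihood test) and an exact permutation p of 0.143. With each library left out in turn it ran from -2.41 (without KO replicate 1) to -1.62 (without KO replicate 3), and within lane 4 the log2 ratio was -0.80. The adjusted p was 0.0467 in edgeR's exact test and 0.0223 in DESeq2's Wald test, both above 0.01.

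Counts of *Fabp3* may be incomplete, because reads that match several places were not counted. A copy of its transcript with 747 matching bases and 99.1% identity lies at chr10:86194498-86195251 in NCBIM37, over the annotated pseudogene *Fabp3-ps1*, and 19.6% of the exon bases of *Fabp3* are shared with *Gm10570* and *Zcchc17* on the opposite strand. *Fabp3-ps1* was at 35.4, 11.1 and 43.5 CPM in WT and at 17.4, 4.83, 1.68 and 12.2 CPM in KO libraries, the same order as *Fabp3* in KO and with WT replicate 2 again the lowest WT library. Its log2 fold change was -1.74 ± 0.71 (SE), with an adjusted p of 0.203, and reads of the gene and of the copy cannot be told apart where the letters are the same.

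*Fabp5* (ENSMUSG00000027533, NCBIM37 chr3:10012548-10016607, plus strand), the epidermal-type binding protein, was at 155, 91.5 and 122 CPM in WT and at 100, 110, 98.3 and 103 CPM in KO libraries. All 4 KO libraries lay within the WT range, between WT replicate 2 and WT replicate 3, and their SD of 5.26 CPM around 103 CPM was the smallest relative to its mean of any member. The log2 fold change was -0.25 ± 0.18 (SE) with an adjusted p of 0.474, -0.05 (adjusted p = 0.938) without WT replicate 1 and -0.42 (adjusted p = 0.143) without WT replicate 2. *Fabp5* has 4 near copies in the genome, the closest with 98.7% identity over 669 matching bases on chromosome 9, so its level is uncertain in the same way as that of *Fabp3*. The other 8 members had no copy with at least 200 matching bases and 90% identity.

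*Acsl1* (ENSMUSG00000018796, NCBIM37 chr8:47556395-47621405, plus strand), which activates long-chain fatty acids, was at 1505, 983 and 1135 CPM in WT libraries. In KO libraries it was at 473, 1110, 401 and 462 CPM. KO replicates 1, 3 and 4 thus lay far below every WT library, and KO replicate 2 lay between WT replicates 2 and 3. The KO mean was 612 ± 334 CPM (SD, n = 4), 50.6% of the WT mean of 1208 ± 269 CPM (SD, n = 3), and the log2 fold change was -0.98 ± 0.37 (SE), with an unadjusted p of 0.0262, an adjusted p of 0.175 (edgeR quasi-likelihood test) and an exact permutation p of 0.0857. The log2 fold change was -1.44 ± 0.24 (SE) without KO replicate 2, with an adjusted p of 0.0635, and -0.79 ± 0.42 (SE) without WT replicate 1, with an adjusted p of 0.484. The lymphocyte marker sum was 425, 584 and 130 CPM in the KO libraries with low *Acsl1* and 68.2 CPM in KO replicate 2. With the mean lymphocyte marker level as a covariate, the log2 fold change of *Acsl1* was -0.29 ± 0.39 (SE), that of *Lpl* -0.38, that of *Fabp3* -2.12, and 0 members had an unadjusted p under 0.05, against 4.71% of all genes lower and 3.43% higher in that fit. The lymphocyte marker level follows genotype in these libraries, so what it holds of the difference cannot be told apart from genotype. The adipocyte marker sum was 3275, 6323, 4119 and 3947 CPM in KO replicates 1 to 4. With the mean adipocyte marker level as the covariate instead, the log2 fold change of *Acsl1* was -1.48 ± 0.36 (SE), with an adjusted p of 0.121 (edgeR quasi-likelihood test).

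**Figure D3:**
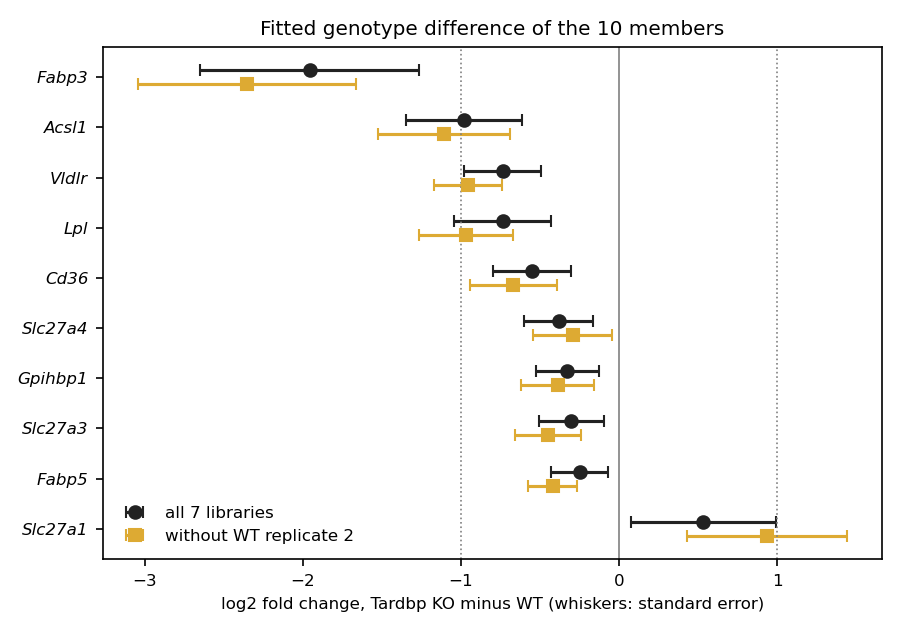
Fitted log2 fold change of each gene, KO minus WT, with whiskers of 1 standard error, for all 7 libraries (black circles) and without WT replicate 2 (yellow squares), and dotted lines at the fold limit of 1. Fabp3 runs from -1.96 to -2.35 and Slc27a1 from 0.53 to 0.93 between the 2 fits, and the other genes lie between -1.11 and -0.25.

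Levels of different genes were compared per length, as RPKM, which is the TMM-scaled CPM divided by the exon length in kilobases. In WT glands *Fabp3* was highest at 2871 ± 1577 RPKM (SD, n = 3), followed by *Cd36* at 275 ± 55.2, *Lpl* at 275 ± 88.8, *Slc27a1* at 147 ± 79.2, *Acsl1* at 128 ± 28.4 and *Gpihbp1* at 88.0 ± 16.8 RPKM. *Slc27a4* at 36.3 ± 3.92, *Fabp5* at 34.4 ± 8.86, *Slc27a3* at 5.86 ± 1.17 and *Vldlr* at 3.57 ± 1.21 RPKM closed the order. Neighbours whose WT libraries did not overlap were *Fabp3* and *Cd36*, *Gpihbp1* and *Slc27a4*, and *Fabp5* and *Slc27a3*, and the other neighbours overlapped. The order in KO glands was *Fabp3* at 739 ± 548 RPKM (SD, n = 4), *Slc27a1* at 212 ± 80.2, *Cd36* at 188 ± 45.2, *Lpl* at 165 ± 48.1, *Gpihbp1* at 70.2 ± 15.2, *Acsl1* at 64.7 ± 35.3, *Fabp5* at 28.9 ± 1.47, *Slc27a4* at 27.8 ± 7.0, *Slc27a3* at 4.75 ± 0.81 and *Vldlr* at 2.14 ± 0.40 RPKM. In KO libraries *Fabp3* overlapped *Slc27a1*, and the breaks lay after *Lpl*, after *Acsl1*, after *Slc27a4* and after *Slc27a3*.

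*Fabp3* alone made up 77.5%, 54.5% and 79.0% of the summed RPKM of the 10 members in WT replicates 1 to 3, and 67.0%, 29.0%, 18.9% and 59.5% in KO replicates 1 to 4. In KO replicate 3 *Slc27a1*, at 220 RPKM, was the highest member in its place. The sum of the other 9 members was 1072, 880 and 1026 RPKM in WT libraries and 660, 1005, 677 and 713 RPKM in KO libraries. KO replicate 2 was within the WT range of this sum and the other 3 KO libraries were below it, as for *Acsl1* and *Lpl* alone.

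The genes whose level followed a member most closely over the 7 libraries were taken as the 3 with the highest Pearson's r of log2(CPM + 1), a description over libraries that share genotype and scaling. For *Lpl* they were *Irs1* (r = 0.995), which encodes an adaptor of the insulin receptor, *Ints6* (0.986) and *Tmem170b* (0.977). For *Vldlr* they were *Ube3a* (0.994), *Cse1l* (0.992) and *Ap1g1* (0.989), and for *Cd36* *Pcdh20* (0.993), *Trim72* (0.986) and *Vprbp* (0.980). *Gpihbp1* was followed by *Ppp1r10* (0.963), the elastin gene *Eln* (0.962) and *Tmem88* (0.962). *Fabp3* was followed by *Fabp3-ps1* (0.997), *1110065P20Rik* (0.992) and *Pelo* (0.989), and *Fabp5* by *Strn3* (0.988), *Eaf1* (0.988) and *Ttc9c* (0.987). *Stk30* (0.992), *Pmm1* (0.990) and *Coro2a* (0.980) were nearest to *Slc27a1*, and *Lsm6* (0.993), *Cbx8* (0.985) and *Ldb3* (0.981) to *Slc27a3*. *Cryl1* (0.993) and the sodium-glucose transporter gene *Slc5a1* (0.991) were among the nearest to *Slc27a4*, and *Amotl1* (0.983), *Ap4b1* (0.980) and *Slc9a2* (0.979) to *Acsl1*. *Pcdh20*, *Trim72* and *Stk30* were low, with WT means of 0.57, 1.92 and 1.01 CPM and KO means of 0.22, 1.12 and 1.39 CPM. Each r was picked as among the highest of 17175 tested genes over only 7 libraries, and none was tested. By the same measure the members were closest to each other for *Lpl* and *Acsl1* (0.928), *Lpl* and *Vldlr* (0.919) and *Lpl* and *Cd36* (0.905), while *Slc27a1* ran from -0.686 with *Cd36* to 0.371 with *Slc27a4*.

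Other genes that act on lipoprotein lipase did not share a direction. Of 12 tested genes for maturation, cofactors and inhibitors of the lipase, 1 was lower and 4 were higher in KO at an unadjusted p under 0.05, 0 passed both limits, and the median log2 fold change was -0.01. The background at such a p was 10.7% of all genes lower and 10.7% higher. *Angptl4*, which encodes a secreted inhibitor of the lipase, was at 161, 759 and 162 CPM in WT and at 1105, 756, 1121 and 1453 CPM in KO libraries. WT replicate 2 was at the level of the lowest KO library, and the other 2 WT libraries were far below. The WT mean was 361 ± 345 CPM (SD, n = 3), and the KO mean 1109 ± 285 CPM (SD, n = 4), a log2 fold change of 1.62 ± 0.56 (SE) with an adjusted p of 0.153 (edgeR quasi-likelihood test) and an exact permutation p of 0.0571. *Furin*, a protease that can cleave the lipase and its inhibitors, had a log2 fold change of -0.39 (adjusted p = 0.285) and *Hspg2*, the gene of the proteoglycan perlecan, of 0.06 (adjusted p = 0.953). The gene lower at an unadjusted p under 0.05 was *Sel1l*, whose protein works with LMF1 in folding the lipase, at -0.66 with all KO libraries below all WT libraries, and the higher ones besides *Angptl4* were *Sdc1* (0.48), *Pcsk6* (0.64) and the lipase activator gene *Apoc2* (1.54, at under 2 CPM in every library), named after their values were seen.

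Among 13 tested receptors and lipases outside the members (*Lrp2* was too low), 2 were lower and 1 was higher at an unadjusted p under 0.05, with a median of -0.14. Of all genes, 10.7% were lower and 10.7% higher at such a p. *Lipa*, the lysosomal lipase gene, had a log2 fold change of -0.38 (adjusted p = 0.501), the endocytic receptor gene *Lrp1* of 0.18 (adjusted p = 0.774) and the HDL receptor gene *Scarb1* of -0.38 (adjusted p = 0.337). The endothelial lipase gene *Lipg*, at -2.14, was among the lower ones, and *Sorl1*, at 1.03, was the higher one, both named after their values were seen.

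Relatives of the members in the transporter, binding protein and synthetase families had log2 fold changes below 0 in 7 and above 0 in 2 of 9 tested genes, out of 15 listed. Their log2 fold changes ran from -0.39 (*Acsl3*, with every KO library below every WT library) to 1.35 (*Slc27a2*, at under 3 CPM in every library), and the median was -0.09, with 0 lower and 1 higher at an unadjusted p under 0.05, the low synthetase gene *Acsbg1* (1.12, named after its value was seen). The shares of all genes at such a p were 10.7% lower and 10.7% higher. *Fabp4*, the binding protein gene of adipocytes and capillary endothelium, had a WT mean of 1453 ± 179 CPM (SD, n = 3) and a KO mean of 1366 ± 210 CPM (SD, n = 4), a log2 fold change of -0.09 ± 0.21 (SE) with an adjusted p of 0.847. *Dbi*, which encodes the acyl-CoA binding protein, was at -0.09 (adjusted p = 0.893) and *Acsl4*, a synthetase gene with a preference for arachidonate, at -0.28 (adjusted p = 0.570).

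At an unadjusted p under 0.05, 10.7% of all tested genes were lower in KO and 10.7% higher. For passage through the endothelium, 1 of 9 genes was lower at such a p, near that share, and 0 were higher, with a median of -0.11. That gene was *Vegfa*, the vascular growth factor, at 293, 252 and 245 CPM in WT and at 200, 189, 149 and 205 CPM in KO libraries. Its KO libraries were without exception under its WT libraries, with means of 264 ± 25.8 CPM (SD, n = 3) and 186 ± 25.6 CPM (SD, n = 4), a log2 fold change of -0.51 ± 0.16 (SE) and an adjusted p of 0.136. The exact permutation p of 0.0286 is the smallest that the test allows. Over all tested genes, 9.62% had every KO library below every WT library. *Cav1*, the caveolin gene, and *Notch1* were both at -0.11. Of 10 genes of PPAR regulators, 1 (*Ppara*, at -1.09, named after its value was seen) was lower and 0 were higher, with a median of -0.17. This count, too, is near the share of all genes. *Rxra* was at -0.18 (adjusted p = 0.491), *Rxrb* at 0.32 (adjusted p = 0.356) and *Ppard* at -0.16 (adjusted p = 0.758).

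The other sources and uses of fatty acids set a frame for the members. De novo synthesis, the gland's own production of fatty acids, had 11 of 13 genes lower and 0 higher at an unadjusted p under 0.05, 8 with all KO libraries below all WT libraries, and a median of -1.46. The background was 10.7% of all genes lower and 10.7% higher at such a p. It was 9.62% for all KO libraries below all WT libraries. *Acly*, which supplies acetyl-CoA, was at -2.42 ± 0.37 (SE) with an adjusted p of 0.0578, the fatty acid synthase gene *Fasn* at -1.65 ± 0.56 with an adjusted p of 0.147, and the desaturase gene *Scd1* at -0.76 ± 0.46 with an adjusted p of 0.376 (edgeR quasi-likelihood test). The study picked several genes of this list on these samples, so the list is not independent evidence of its direction. Triglyceride assembly, the joining of fatty acids to glycerol, had 1 of 10 genes lower (*Agpat1*, at -0.94, which the study also picked on these samples) and 1 higher (*Agpat3*, at 0.60), with a median of 0.04, and *Lpin1* was at -0.53 and *Dgat2* at 0.09. The median of the uptake genes, -0.47, thus lay between those of the 2 other lists, and no test of the difference between the lists was made. None of these lists held a gene past both limits. Without WT replicate 2, the genes lower and higher at an unadjusted p under 0.05 numbered 1 and 1 for the control of the lipase, 4 and 4 for other receptors and lipases, 0 and 1 for relatives of the members, 3 and 1 for endothelial passage, 1 and 1 for PPAR regulators, 12 and 0 for de novo synthesis and 2 and 1 for triglyceride assembly. In that fit 11.8% of all genes were lower and 13.8% higher at such a p.

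**Figure D4:**
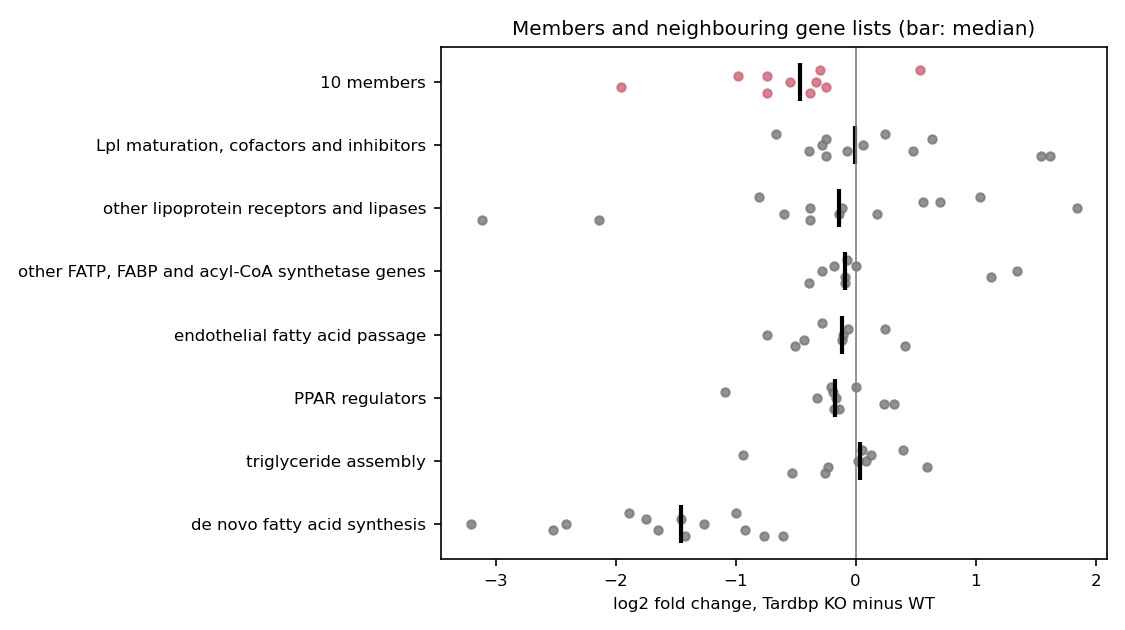
Fitted log2 fold changes, KO minus WT, of the 10 members (red) and of the tested genes of 7 related lists (grey), 1 point per gene, with a black bar at the median of each list. The medians are -0.47 for the members, -0.01, -0.14, -0.09, -0.11, -0.17 and 0.04 for the lists above the last, and -1.46 for de novo synthesis.

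Promoter sequences, as windows of 300 bases around the transcription start, were given for 7 of the 10 members (11 promoters, RefSeq, GRCm38.p6). Both strands were searched for the binding letters of the regulators of this route. The DR1 element of PPAR, a pair of AGGTCA repeats with any single base between them, was in 0 of 11 and in 0.0396% of 32851 promoters, and the STAT5 letters TTCNNNGAA were in 0 of 11 and in 8.30% of all. The single nuclear receptor repeat AGGTCA, a part of the first, was in 1 of 11, that of *Cd36*, and in 16.3% of all promoters. It lies at position -228 from the start on the antisense strand, which is the strand printed, with the repeat in capitals.
*Cd36*, promoter: cctgaaaatctcAGGTCAtaaagtgcagag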

How the data were processed

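Whole mammary gland RNA was extracted with Trizol and made into libraries with an Illumina TruSeq kit. The authors mapped paired-end reads with STAR to mouse assembly NCBIM37 (mm9; their processing notes give STAR 2.5.2a) and counted them on exons of GENCODE vM1 genes by means of featureCounts. The deposited values are read counts per gene, not normalized. Strand was not used, mates were counted separately, and reads of several places or of overlapping genes were not counted. The file's command line names 1 further library, not analysed here.

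The members and gene lists were chosen with earlier results of these data known. After removal of 37 mitochondrial and 580 ribosomal genes, a minimum of 5 counts in 4 or more of the 7 libraries left 17175 genes. Genotypes were compared with edgeR 4.0.16 (R 4.3.3), TMM scaling and the quasi-likelihood test on all these genes. Calls needed an adjusted p under 0.01 together with a log2 fold change beyond 1 in either direction, as in the study's methods. Single members were also compared on log2(CPM + 1) by exact permutation of the library labels (2-sided, 35 arrangements). RPKM used the exon length in the file. Marker lists were Pecam1, Cdh5, Kdr, Tie1, Tek, Emcn, Egfl7, Cldn5, Esam and Eng for endothelium, with lists of 8 or 10 genes for adipocytes, secretory epithelium, myoepithelium, lymphocytes, macrophages and skeletal muscle. Myoepithelial markers summed to 1203 to 2064 CPM in WT and 1079 to 3078 CPM in KO libraries, and skeletal muscle markers to 4.78 to 5.17 and 5.23 to 12.5 CPM.

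Named genes were all members, the 3 most abundant genes of each list and the 3 genes most alike each member. Values of some genes under this rule or in these lists are not reported here. Near copies were found with minimap2 2.31-r1302. UG runs and promoter letters were searched in annotated transcripts and RefSeq promoters. Alternatives were other normalizations, filters and tests (DESeq2 1.42.0 among them), marker levels as covariates, a replicate block, lane 4 only, and each library left out in turn. Library totals lay between 36007737 and 42811337 counts. Figures were drawn with matplotlib 3.10.9.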

Additional observations from a re-analysis of the deposited data

Results flagged for a closer look

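Among the KO libraries, *Acsl1* was the only one of the 31 genes checked in which 1 library stood far from the other 3. KO replicate 2 was at 1110 CPM and the others at 401 to 473 CPM, so that the gap to its nearest neighbour was 0.898 of the whole range of the group, above Dixon's 95% critical value for 4 samples. Chance alone gives such a gap in about 1 in 20 groups, so 1 flag among 31 genes is no more than that rate gives. The WT groups of 3 libraries were outside this check. In them *Angptl4*, for example, was at 161, 759 and 162 CPM in replicates 1 to 3. KO replicate 2 also had the highest *Lpl* and *Cd36* of the KO libraries. Its adipocyte marker sum was the highest of them and its lymphocyte marker sum the lowest. The part of any of these in the gap was not tested.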

How the results depend on the processing

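No member passed both limits under any alternative. The 7 members other than *Gpihbp1*, *Fabp5* and *Slc27a3* kept their direction in all 21 alternatives that were run. With library size only in place of TMM, which raised the median log2 fold change of all genes to 0.42, that of the members was -0.088 (-0.51 relative to all genes). In that fit 1 member (*Fabp3*, lower) had an unadjusted p under 0.05, against 3.05% of all genes lower and 30.8% higher. *Gpihbp1* (0.035), *Fabp5* (0.14) and *Slc27a3* (0.071) turned to higher in KO. Within lane 4, where 1 WT library allows no test, *Fabp5* (0.14) and *Slc27a3* (0.14) also turned. With the lymphocyte marker level as a covariate, 0 members had an unadjusted p under 0.05, where 4.71% of all genes were lower and 3.43% higher at such a p. Leaving out each library in turn gave 0 to 6 such members, 0 to 7 members whose groups do not overlap, and medians of -0.56 to -0.43. The share of all genes lower at such a p ran from 5.89% to 12.6% over these fits. Without KO replicates 1, 2 and 4 the members with such a p numbered 3, 5 and 3, all lower. The shares of all genes lower were then 10.3%, 8.39% and 12.6%. The members that do not overlap numbered 7 without WT replicate 2 (37.5% of all genes in either direction), 4 without KO replicate 2 (23.1%), 2 without KO replicate 1 (25.9%), 1 without WT replicate 1 (23.0%) and 1 without KO replicate 4 (29.0%), against 18.7% with all libraries. Fewer libraries leave less room for overlap, so these counts are not a result about the members. The number of all genes past both limits was 0 in the quasi-likelihood test, 426 in edgeR's exact test, 572 in DESeq2's and 1 without a filter on low counts. With a replicate block 0 members were past both limits, the median was -0.48, and 4 members had an unadjusted p under 0.05, of which *Fabp3*, *Slc27a4* and *Acsl1* were lower and *Slc27a1* higher, whereas *Lpl* and *Vldlr* were not among them. The block raised the count of all genes with such a p from 3674 to 4225. The numbers did not pair the libraries (r of same-numbered deviations 0.44, 0.07 and -0.08 across genes), and WT replicates 2 and 3 correlated best with KO replicates 4 and 2. KO replicate 4 has no partner and adds nothing to that fit. With 3 and 4 libraries and this spread, adjusted p-values of *Fabp3* ran from 0.0223 to 0.645 over the alternatives.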
